A study of Drosophila melanogaster with 3 samples.

Results

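The regions described here are the 4287 weak entries in coding exons, out of 23886 entries in the pooled peak list of a chromatin immunoprecipitation sequencing (ChIP-seq) experiment on the fusion protein CG8944-eGFP. Each lay outside the reproducible peak list, overlapping none of its 3511 peaks by 1 bp or more. The summit, the base that the caller placed at the top of the entry, lay more than 500 bp from every annotated transcription start site (TSS). It also lay in no annotated untranslated region (UTR) and inside a coding sequence (CDS). The steps left 19963 entries that overlapped no reproducible peak (called weak entries below), then 15204 away from start sites, 14457 outside UTRs and 4287 in a CDS, or 21.5% of the weak entries. The other 15676 weak entries included 4759 at promoters (summit within 500 bp of a TSS), 6609 in introns and 3379 between genes.

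The samples were 3 biological replicates of 1 group, CG8944-GFP embryos of Drosophila melanogaster. They came from 1 transgenic line, were of both sexes and were collected at 0 to 24 h, so that each sample mixed all cell types and ages of embryogenesis. The fusion carries GFP at the C terminus, and an antibody against GFP recovered chromatin sheared to fragments of 200 to 800 bp. All samples carry the fusion, and no untagged or input sample was analysed here.

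Coding exons are the translated parts of genes. In Drosophila they hold more G and C than introns do, mostly because codons ending in G or C are used more often at the end of the codon, where most changes are synonymous. Relaxed peak lists are made long on purpose: the irreproducible discovery rate (IDR) procedure compares how replicates rank the entries to choose a reproducible set. The rest of the list is left as a mixture of weak sites and background. Membership in such a list is therefore not evidence of binding.

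The coding letters at some summits show the range of base composition among these entries. Each line below gives 30 bases of the coding strand around a summit, in frame and read 5′ to 3′, with the third base of every codon in capitals (dm6, RefSeq genome sequence). The first 4 are among the 10 entries with the highest pooled signal, corto is among those that ranked best across replicates, and Pgant2 and CG33978 have the highest and the lowest GC content around the summit. HisRS is the weakest coding-exon peak that entered the reproducible list. The stretches were picked for rank or for extreme GC and are not a sample of the entries.
CG6420: tcGccGcaGgtGcgCgtCtcCatGgtGacC
ara: ggAggAggGccAgcGgaTctGgcCacCggT
Ddrgk1: ctTgaGgcAgaGgcCgaGcgCaaGcgGgtG
l(3)mbn: gtGacAgcGaaTacAccAacCggAaaTgtA
corto: aaGccGccGgcGggCcaGagAgtGgaGccC
Pgant2: ccAgcTggCggAggAgcGggTccGggAgcG
CG33978: aaTagCaaTgaAgaTcaGctTacAacTgtT
HisRS: tgTgcAacGttCcaGacGgcGccCtcTggC

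The stretch in CG6420 (chr3R:26724548-26724577, minus strand) held G or C at 10 of 10 capital positions and in 21 of 30 bases. In ara, which encodes a homeobox protein of the Iroquois group (chr3L:12585988-12586017, plus strand), the counts were 5 of 10 and 22 of 30, and in Ddrgk1, a component of the UFM1 protein-modification pathway (chr3R:21215683-21215712, plus strand), they were 8 of 10 and 21 of 30. In corto, which encodes a chromatin protein that works with the Polycomb and trithorax groups (chr3R:5085510-5085539, minus strand), they were 9 of 10 and 23 of 30. The entry in l(3)mbn (chr3L:6124811-6124840, minus strand), the strongest of all, stood apart with 3 of 10 and 14 of 30. The Pgant2 stretch (chr2L:3407896-3407925, minus strand), in a gene for an enzyme that starts O-linked glycosylation, had 81.2% GC within 50 bp of the summit. The CG33978 stretch (chr4:160423-160452, minus strand) had 25.7% GC there. The HisRS stretch (chrX:18517599-18517628, plus strand), in the gene for histidyl-tRNA synthetase, had 7 of 10 and 20 of 30.

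The entries were chosen by measured values: the reproducible peaks, which the rule leaves out, are the 3511 entries of the pooled list with the highest signal. So signal and q are given as a description only. The caller's signal, whose scale is not given in the sources used here, had a median of 47.2 in the weak coding-exon entries (lowest 38.0, highest 106.7) and of 49.3 in the other weak entries. Of the 4287 entries, 80 (1.87%) had a q-value under 0.05, against 1233 of the other weak entries (7.87%) and 6.58% of all weak entries. The median q-value was 0.722 in the weak coding-exon entries. All 4287 entries had a width of 400 bp.

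The boundary with the reproducible list was narrow for coding exons. Just inside it on the weak side were the entries of l(3)mbn with a signal of 106.7, bic with 106.1 and par-1 with 104.9. Just outside were the 15 coding-exon peaks of the reproducible list, starting with HisRS at 109.9, the ubiquitin ligase gene Ubr1 at 111.0, CG5181 at 114.0, pyd, the ZO-1 homologue, at 117.6, and the mitochondrial import gene Tim17b1 at 118.7. The peak in the homeobox gene otp, at 1114, was the strongest of the 15. At the other boundary, 44 weak coding-exon entries had a summit 501 to 510 bp from a TSS, and 76 weak entries of any class had one at 491 to 500 bp.

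The 10 strongest weak coding-exon entries were also listed in single replicates, at ranks that differed from list to list. They were picked by pooled signal, which comes from the same reads, so their presence in replicate lists is largely brought by that choice. Ranks are by signal within a list, 1 being the strongest, in lists of 30000, 30000 and 27393 entries for replicates 1, 2 and 3. The entry in l(3)mbn, named for the blood cell tumours of its mutants, ranked 2164, 10832 and 4296 (signal 53.6, 22.8 and 29.8, each on its own list's scale). The entry in bic, which encodes the beta subunit of the nascent polypeptide-associated complex, ranked 3052, 4254 and 5409 (43.7, 34.2 and 26.1). In par-1, which encodes a polarity kinase, the ranks were 7263, 10496 and 2427 (26.5, 23.0 and 44.4). The best of the 3 ranks was thus in replicate 1 for l(3)mbn and bic and in replicate 3 for par-1.

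The entry in CenG1A, an Arf GTPase-activating protein gene, ranked 3980, 3302 and 17348 in replicates 1, 2 and 3, so that its rank was worst in replicate 3. The entry in crp, which encodes a basic helix-loop-helix protein, ranked 1741 in replicate 1 and 10177 in replicate 3, and replicate 2 had no overlapping entry. In Epac, which encodes a cAMP-activated exchange factor, the ranks were 4899, 5032 and 3177. Of these 10 entries, only the one in crp was absent from a replicate list.

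**Figure D1:**
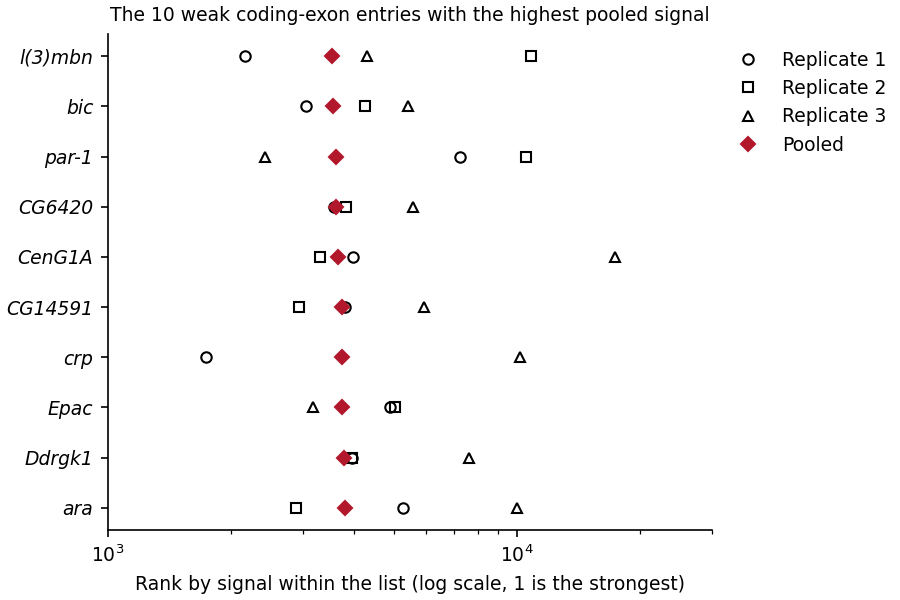
The rank by signal within each list (x axis, log scale, 1 is the strongest) of the 10 weak coding-exon entries with the highest pooled signal, by gene: open symbols are the overlapping entry in each replicate list and the filled diamond is the pooled list. Replicate ranks run from 1741 to 17348 and pooled ranks from 3522 to 3794, and crp has no entry in replicate 2.

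The weak coding-exon entries were rich in GC, beyond coding sequence as a whole and, by less, beyond the coding sequence of their own genes. In windows reaching 50 bp to either side of the summit, the median GC content was 58.4% in the weak coding-exon entries of the pooled list (quartiles 54.5% and 62.4%), 44.6% in the other weak entries and 35.6% in all reproducible peaks, few of which lie in coding exons. The 15 coding-exon reproducible peaks had a median of 61.4% (45.5% to 70.3%), so that high GC was not particular to the weak ones. Coding bases that met the same rules of distance and annotation (eligible bases, 17.5 Mb) had a median of 53.5%, against 39.6% for eligible intron bases. GC of 60% or more was found in 1773 weak coding-exon entries (41.4%) and in 6.23% of the other weak entries. GC under 40% was found in 53 weak coding-exon entries (1.24%) and in 34.4% of the other weak entries.

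The same was seen in each replicate list taken alone. Weak coding-exon entries had a median GC of 57.4% in replicates 1, 2 and 3 alike, and exceeded the other weak entries by 13.9, 11.9 and 13.9 percentage points. The mean difference was 13.2 ± 1.14 percentage points (SD, n = 3; exact sign-flip permutation test, two-sided, p = 0.25, the smallest that 3 replicates allow, so that 0.05 could not be reached). Most of it is the gap between coding and other sequence, which the choice of CDS brings with it. The part that the choice does not bring is the excess over eligible coding bases. Set against the eligible coding bases of the same gene, the windows were 1.98 percentage points higher in GC at the median in each of the replicates (n = 3; exact sign-flip permutation test, p = 0.25), and 60.8%, 64.1% and 61.4% of them lay above their gene's median. GC in such windows moves in steps of about 1 point, so that equal medians hide smaller differences. In the pooled list the difference was 2.97 percentage points, and 66.9% of the entries lay above.

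The excess over all eligible coding bases reached every codon position. The coding bases in the windows had a GC content of 60.5%, 46.7% and 68.9% at codon positions 1, 2 and 3, against 55.6%, 41.6% and 63.0% over all eligible coding bases. In the replicate lists the values were 59.2% ± 0.317, 45.2% ± 0.345 and 67.9% ± 0.186 (SD, n = 3). The difference from eligible bases was 3.57 ± 0.317, 3.60 ± 0.345 and 4.91 ± 0.186 percentage points at the 3 positions, and was positive in 3 of 3 replicates at each (exact sign-flip permutation test, p = 0.25, the smallest allowed). Among codons, GCG (alanine) was 1.47 times as frequent in the windows as in eligible coding sequence, CCG (proline) 1.37 times and GGC (glycine) 1.33 times. TTA (leucine), AAA (lysine) and TTT (phenylalanine) were at 0.483, 0.574 and 0.635 times the eligible frequency.

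Coding exons held more weak entries per base than introns did, and the gap depended on the local GC content. There were 291, 341 and 271 weak entries per Mb of eligible coding sequence in replicates 1, 2 and 3, against 169, 167 and 152 per Mb of eligible intron. Coding density exceeded intron density in each replicate, by 1.85-fold ± 0.169 (SD, n = 3; exact sign-flip permutation test on log2 ratios, p = 0.25). Between genes the density was 124 ± 13.3 per Mb. In the pooled list there were 245 entries per Mb of coding sequence and 125 per Mb of intron.

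Split by GC, density in coding exons climbed from bin to bin. It averaged 96.2 ± 17.8 per Mb under 40% GC, 167 ± 13.7 at 45 to 50%, 363 ± 37.8 at 55 to 60%, 845 ± 125 at 65 to 70% and 1145 ± 152 at 70% or more (SD, n = 3). Intron density went up less steeply, with 123 ± 18.3 per Mb under 40%, 198 ± 27.2 at 45 to 50% and 334 ± 75.1 at 60 to 65%. Coding exons were below introns in 3 of 3 replicates in each bin under 50% GC and above them in 3 of 3 in each bin from 55% up. With both densities averaged over the GC bins in the proportions of the weak coding-exon entries, coding exceeded intron by 1.60-fold ± 0.140. Introns from 65% GC up held few entries, with 19 to 29 per replicate at 65 to 70% and 0 to 2 above. Over the bins under 65% the ratio was 1.31, and over those under 55% it was 0.946, with introns ahead.

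**Figure D2:**
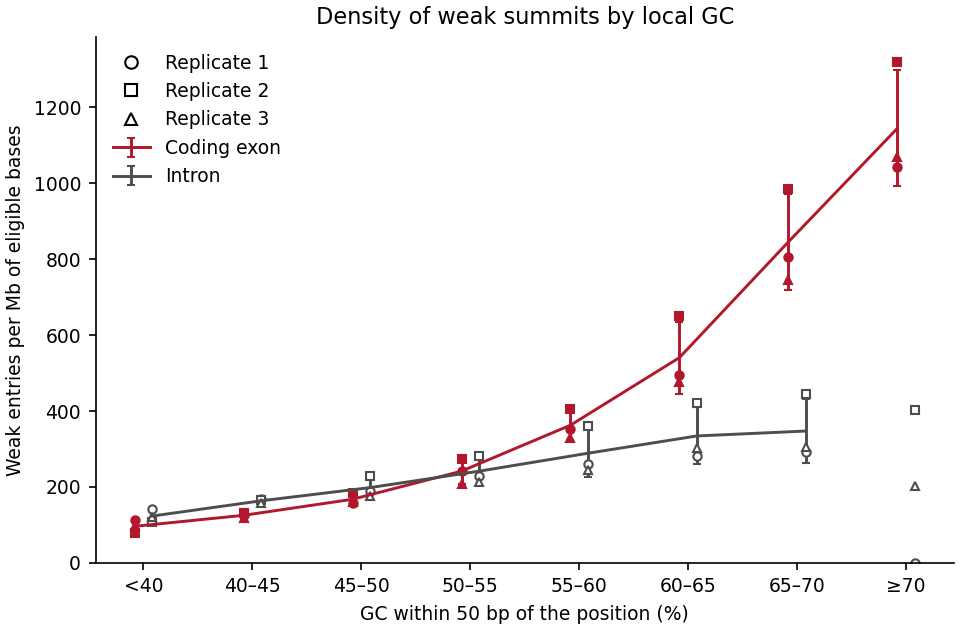
Weak entries per Mb of eligible bases (y axis) by the GC content within 50 bp (x axis, bins in percent), for coding exons (filled red) and introns (open grey). Symbols are the 3 replicates, lines join their means and bars are SD; the last intron bin, with 0 to 2 entries, is not joined. The lines cross between 50 and 55% GC, and coding exons reach 1145 per Mb in the last bin.

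Agreement between the pooled list and the replicate lists was partial. The pooled list was made from the same reads as the replicate lists, so an overlap between them is not independent. Of the weak coding-exon entries, 65.2%, 72.2% and 61.7% were overlapped by 1 bp or more by an entry of replicates 1, 2 and 3, against 72.0%, 71.2% and 66.2% of the other weak entries. Over all weak entries the shares were 70.6%, 71.4% and 65.2%. The difference was -6.80, 1.02 and -4.54 percentage points, or -3.44 ± 4.03 (SD, n = 3; exact sign-flip permutation test, p = 0.5), which is within the spread between replicates.

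All 3 replicate lists overlapped 1148 weak coding-exon entries (26.8%), against 34.3% of the other weak entries and 32.7% of all weak entries. Exactly 2 lists overlapped 2012 (46.9%), 1 list 1070 (24.96%) and no list 57 (1.33%, against 1.32% of all weak entries). Of the reproducible peaks, 99.4% were overlapped in all 3. These are the 3511 pooled entries with the highest signal, in a list that IDR derived from the same replicates, so their overlap is not independent. Pooled signal comes from the same reads as the replicate lists, so a larger overlap at higher pooled signal is largely built in. Of the weak coding-exon entries at or above their median signal, 78.1% ± 4.56 were overlapped by a replicate, and of those below it 54.7% ± 6.20 (SD, n = 3). The other weak entries, split at the same signal, gave 81.7% ± 3.10 and 54.6% ± 4.16.

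The overlapping replicate entries came from the middle of their lists. Their median rank was 13958, 12203 and 12825 in replicates 1, 2 and 3, in lists of 30000, 30000 and 27393 entries. As a description across entries, which share libraries and are not independent, Spearman's rho of the signal was 0.118 between replicates 1 and 2 (n = 1917), 0.0705 between 1 and 3 (n = 1681) and 0.106 between 2 and 3 (n = 1858) for weak coding-exon entries. For the other weak entries it was 0.241, 0.277 and 0.262, and for the reproducible peaks 0.772, 0.753 and 0.806. The sets were cut on pooled signal, which ran from 38.0 to 106.7 in weak coding-exon entries and from 107.0 to 3177 in reproducible peaks. A narrow range of signal lowers rho by itself, so the values of weak entries and reproducible peaks do not compare their agreement.

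Setting one replicate's own weak coding-exon entries against another's list avoids the shared reads. Over the 6 ordered pairs of replicates, 32.9% ± 3.12 (SD over pairs) of weak coding-exon summits lay inside an entry of the other replicate, while those entries covered 10.8% ± 1.10 of eligible coding bases. At the GC content of the summits the covered share was 13.7% ± 1.45, so that summits fell inside 2.40 ± 0.0828 times as often as the bases did. In introns 33.8% ± 1.86 of weak summits lay inside, with 7.55% ± 0.421 of bases covered at the same GC, a ratio of 4.48 ± 0.205. The ratio was 2.28 to 2.50 over the 6 pairs in coding exons and 4.29 to 4.76 in introns, without overlap. It was 5.38 to 6.20 between genes and 2.63 to 2.92 at promoters. The covered bases include those at reproducible peaks, where no weak summit lies. Coding exons hold 15 of these peaks, while the median reproducible peak lay 368 bp from a TSS, inside the promoter class. The ratio is therefore lowered more at promoters than in coding exons, by an amount that was not computed. On the log2 scale, coding exons minus introns came to -0.90 ± 0.024 (SD, n = 3 replicates; exact sign-flip permutation test, p = 0.25). Each value averages the summits of 1 replicate over both other lists, so the 3 values share lists and are not independent. Their SD can therefore understate the spread between replicates, and the test is given as a description only.

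In replicates 1, 2 and 3, 16.0%, 13.4% and 17.0% of weak coding-exon summits lay inside entries of both other replicates. A further 49.5%, 52.6% and 47.0% lay inside no entry of either other replicate. These shares concern the summit base alone. An entry counted in the last group can still overlap one of another replicate away from its summit.

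**Figure D3:**
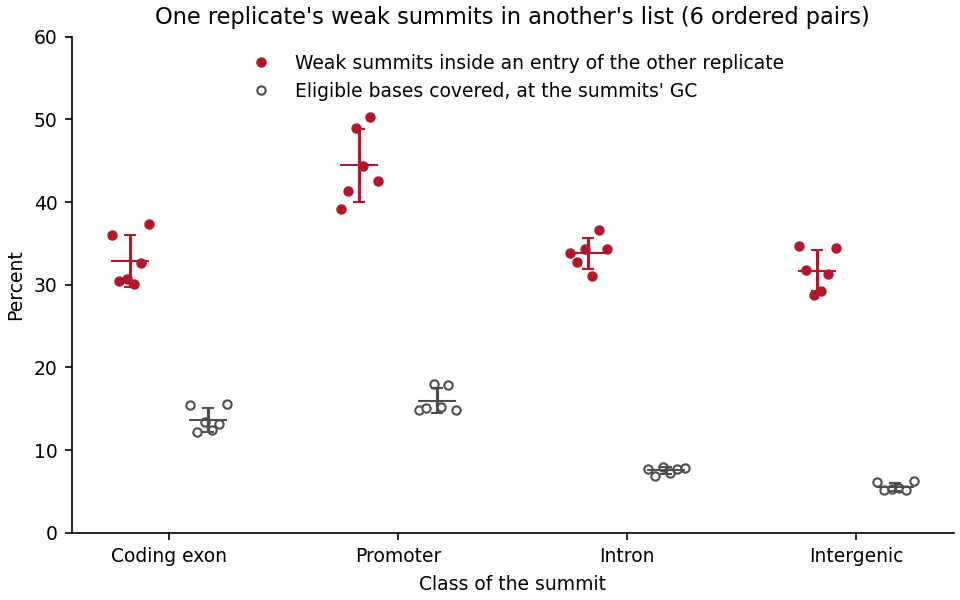
Percent of one replicate's weak summits inside an entry of another replicate (filled red) and percent of eligible bases that those entries cover at the same GC content (open grey), by class of the summit; points are the 6 ordered pairs, bars are means ± SD. Coding-exon and intron summits lie inside about equally often, 32.9% and 33.8%, while 13.7% of coding bases and 7.55% of intron bases are covered.

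The weak coding-exon entries were spread thinly over many genes. Of 11998 genes with eligible coding sequence, 3262 (27.2%) held at least 1 entry. A single entry was found in 2507 of these genes, 2 entries in 560 and 3 or more in the rest. Of the 4287 entries, 3998 (93.3%) lay inside the span of a single gene, and neighbouring entries lay a median of 10861 bp apart. In 183 neighbouring pairs the entries overlapped, so that some counts below include overlapping entries that share a replicate entry.

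The gene with the most entries was lola, a gene for many isoforms of a BTB zinc finger factor of axon guidance. It held 9 in the pooled list and 14, 13 and 4 in replicates 1, 2 and 3. Then came spen, encoding an RNA-binding corepressor, with 7 (6, 9 and 5 in the replicates), Strn-Mlck, a giant muscle kinase gene, with 7 (4, 9 and 5), and CG32264 with 7 (3, 8 and 1). The cytoskeletal linker gene shot had 6 (9, 7 and 8), and skd, encoding the Mediator subunit Med13, had 6 (8, 3 and 4). The counts moved by up to 8 times between replicates in CG32264, and stayed within 1.3 times in shot.

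Another 10 genes held 5 entries each. The 4 of them with the highest signal were osa, encoding a subunit of the Brahma chromatin remodelling complex, Eip74EF, an ecdysone-induced Ets factor gene, siz, an Arf exchange factor gene, and gukh, a synaptic scaffold gene. Of the 5 in osa, 3 were overlapped in all 3 replicates, including the strongest, with a pooled signal of 86.4 and 19.3, 33.3 and 19.6 in replicates 1, 2 and 3. In Eip74EF the strongest entry had a pooled signal of 96.5 and 22.8, 39.4 and 22.4 in the replicates. In siz the strongest had 86.7 pooled and 22.3, 53.1 and 17.9 in the replicates.

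Long genes held more entries but fewer per base. Entries were found in 22.2% of genes with 501 to 1000 eligible bp and in 65.1% of those with more than 8000, while the density was 323 per Mb in the shorter genes and 113 per Mb in the longest. To set this beside GC, the number of entries that each stretch would hold at the density of its GC bin over all coding sequence was summed (the number from local GC). Genes over 8000 bp held 0.688 ± 0.107 times that number in the replicates, and genes of 501 to 1000 bp 1.28 ± 0.107 times (SD, n = 3).

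By entries per kb, among genes of at least 1000 eligible bp and 3 entries, the leaders were CG4577 with 3.59, the peroxisomal import gene Pex13 with 2.74, the head homeobox gene ems with 2.30, obst-E, which encodes a chitin-binding cuticle protein, with 2.20, and the neuropeptide receptor gene CCHa2-R with 2.09. All 5 had an entry in every replicate list, with 2, 2 and 3 in CG4577. These genes were picked by pooled counts from the same reads, so their entries in the replicates are not independent of the choice. The entries with the best mean rank across replicates were in Adk3 (signal 33.8, 81.7 and 35.2), corto (38.2, 44.1 and 27.3), CG14591 (37.8, 43.0 and 24.9) and bic. In CG14591, 2 overlapping pooled entries shared these same replicate entries and count as 1 site.

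Genes were also compared by their own GC content. Among genes with at least 500 eligible bp, 908 of the 1743 in the GC-richest quintile (57.6% GC and over) held an entry (52.1%), against 290 of 1743 (16.6%) in the poorest quintile. The densities in the pooled list were 437 and 105 entries per Mb. In the replicates they were 450, 537 and 428 per Mb in the richest quintile and 156, 173 and 146 per Mb in the poorest, without overlap.

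The gene lists differed widely in density, and for some lists more than local GC would give. Over all eligible coding sequence the pooled list held 245 entries per Mb, the median gene held 0 and 27.2% of genes held at least 1. The 8 Hox genes, which specify segment identity along the body axis, held 10 pooled entries in 6 genes (942 per Mb, median 1 per gene). Their entries numbered 10, 11 and 9 in replicates 1, 2 and 3, or 2.07 ± 0.111 times the number from local GC (SD, n = 3). Within the list, pb had 3 entries (2, 3 and 3 in the replicates) and lab had 2 (2, 2 and 2). For the Hox genes the excess thus lay close together in the 3 replicates.

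The 56 cytoplasmic ribosomal protein genes with eligible sequence held 17 pooled entries in 15 genes (1048 per Mb, median 0 per gene). The share of genes with an entry was thus 26.8%, near the 27.2% over all genes with eligible coding sequence. In the replicates there were 22, 10 and 12 entries, or 3.31, 1.24 and 1.92 times the number from local GC. The mean of 2.16 ± 1.05 thus hides a wide spread. RpL19 led with 2 pooled entries (1, 1 and 1 in the replicates), as did RpL8 (2, 0 and 1). Of 13 highly expressed housekeeping genes, 9 held 12 pooled entries (707 per Mb, median 1), with 17, 10 and 16 in the replicates (2.19 ± 0.789 times the number from local GC). They included blw, encoding the mitochondrial ATP synthase alpha subunit, and the chaperone gene Hsc70-4, with 2 pooled entries each (2, 2 and 3 in the replicates for blw, and 1, 1 and 3 for Hsc70-4).

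The 25 embryonic patterning genes held 19 entries in 13 genes (569 per Mb, median 1), at 1.13 ± 0.349 times the number from local GC, which differs from 1 by less than the SD. The pair-rule gene opa had 3 pooled entries but 0, 1 and 3 in the replicates, and the posterior homeobox gene cad had 2 (1, 2 and 2). The Notch pathway (370 per Mb, 7 of 16 genes, median 0) lay at 0.975 ± 0.351 and was led by the corepressor gene H with 3 (3, 2 and 3) and the receptor gene N with 3 (2, 4 and 1). Neural genes (278 per Mb, 14 of 21 genes, median 2) lay at 0.835 ± 0.0930, with 3 entries each in the synaptic partner-matching gene Ten-m (3, 5 and 3 in the replicates) and the midline repellent gene sli (4, 2 and 0). Polycomb and trithorax group genes (207 per Mb, 10 of 21, median 0) lay at 0.882 ± 0.115, with osa and Asx in front. Cuticle protein genes (298 per Mb, 9 of 70, median 0) lay at 0.911 ± 0.0875.

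Lists of long structural genes lay below the number from local GC in their mean over replicates, with 1.05 in replicate 3 for the cadherins as the exception among single values. The 14 extracellular matrix genes held 22 entries in 10 genes (143 per Mb, median 1) at 0.578 ± 0.0731, and dpy, which encodes the giant Dumpy protein, held 4 in its 68.8 kb of eligible sequence, or 0.313 ± 0.0353 times. The laminin gene wb, in the same list, held 5 (2, 6 and 6 in the replicates) at 1.48 ± 0.752 times. The muscle and cytoskeleton genes held 27 in 12 of 17 genes (115 per Mb, median 1) at 0.733 ± 0.122, with 6 in shot at 1.09 ± 0.221 times and 4 in Mhc, the muscle myosin heavy chain gene, at 1.24 ± 0.507 times. The cadherins held 14 in 9 of 16 genes (127 per Mb, median 1) at 0.729 ± 0.331, with 3 in shg, the E-cadherin gene, at 2.54 ± 0.167 times. The genes named from each list, at most 2, are those with the most pooled entries. Their ratios were raised by that choice and are not typical of the list.

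The nuclear pore and splicing genes held 8 entries in 5 of 13 genes (135 per Mb, median 0) at 0.664 ± 0.224. The chemosensory receptors held 12 in 11 of 171 genes (76.2 per Mb, median 0) at 0.652 ± 0.160. The dynein heavy chains, motor subunits that act mainly in cilia and transport, held 1 pooled entry in 7 genes (11.3 per Mb, median 0), in Dhc36C, but 3, 15 and 9 entries in replicates 1, 2 and 3, at 0.389 ± 0.232. The order of the lists changed between replicates. Ribosomal protein genes had the highest ratio in replicate 1, Hox genes in replicate 2 and housekeeping genes in replicate 3, and the means of these 3 lists differ by less than the SD of 2 of them.

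**Figure D4:**
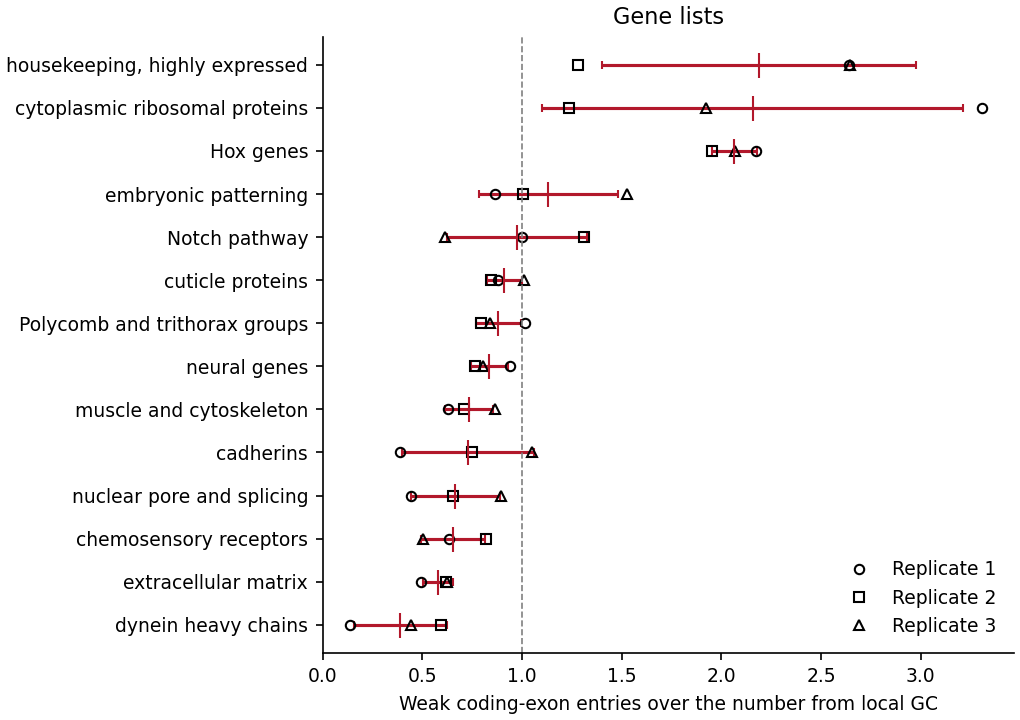
Weak coding-exon entries divided by the number from local GC (x axis) for 14 gene lists; open symbols are the 3 replicates, red ticks and bars are their mean ± SD, and the dashed line marks 1, the value for all coding sequence. Hox genes lie at 1.95 to 2.18 in the 3 replicates and extracellular matrix genes at 0.494 to 0.623, while ribosomal protein genes range from 1.24 to 3.31.

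By chromosome arm, the X stood below the 4 large autosomal arms. Eligible coding sequence on the X held 224, 272 and 197 entries per Mb in replicates 1, 2 and 3. The means on 2L, 2R, 3L and 3R were 311 to 324 per Mb. The small chromosome 4, with 35 pooled entries, held 219 ± 51.5 per Mb, against 231 ± 38.0 on the X (SD, n = 3). Eligible GC content was 41.6% on chromosome 4 and 55.5% on the X. Divided by the number from local GC, the X came to 0.666, 0.678 and 0.627 in the 3 replicates, and 2L, 2R, 3L and 3R to 1.03 to 1.14. The X was below each of these 4 arms in 3 of 3 replicates, and X minus the mean of the 4 arms was -0.73 ± 0.067 on the log2 scale (SD, n = 3; exact sign-flip permutation test, p = 0.25, the smallest allowed). Weak intron entries on the X moved the same way, with 137 ± 7.86 per Mb against means of 160 to 187 per Mb on the 4 arms. Introns of chromosome 4 held fewer, 89.3 ± 40.6 per Mb.

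**Figure D5:**
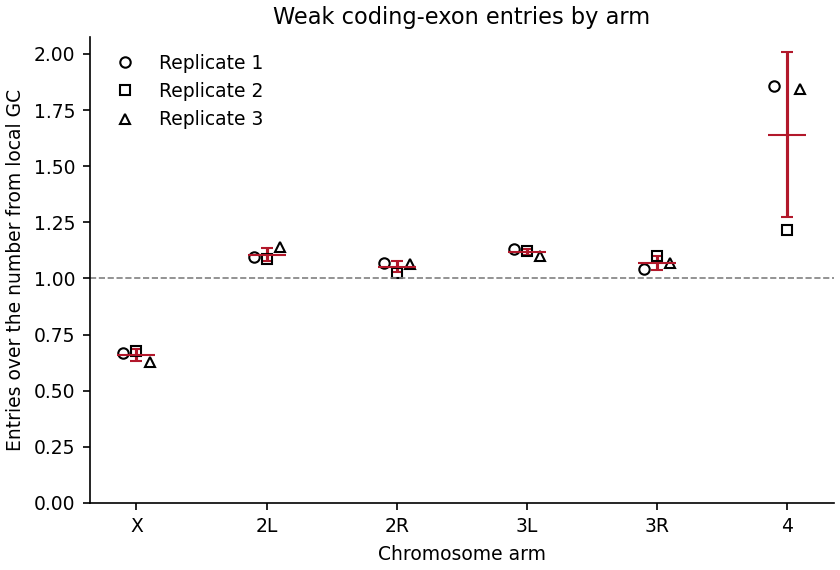
Weak coding-exon entries divided by the number from local GC (y axis) by chromosome arm, for the 3 replicates (open symbols) with mean ± SD (red). The X lies at 0.627 to 0.678, the 4 large autosomal arms at 1.03 to 1.14, and the small chromosome 4, with 35 pooled entries, at 1.22 to 1.86.

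Within genes the weak coding-exon entries were sparser near exon ends and in the longest and shortest exons. The coding exon around the summit had a median length of 764 bp, against 831 bp for eligible coding bases. A summit within 50 bp of an exon end was found in 474 weak coding-exon entries (11.1%), against 20.5% of eligible bases, whose own GC content there was 51.5% against 53.9% farther in. Beside the number from local GC, summits near an exon end came to 0.904 ± 0.0204 in the replicates (SD, n = 3). Exons over 2000 bp came to 0.730 ± 0.0699, those of 501 to 1000 bp to 1.13 ± 0.0248, and those up to 200 bp to 0.806 ± 0.0401.

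First coding exons held 14.8% of the weak coding-exon entries and 9.72% of eligible bases, or 1.17 ± 0.0343 times the number from local GC in the replicates. Last coding exons came to 1.10 ± 0.0246 times and internal ones to 0.908 ± 0.0195 times. The first exons ranged above the internal ones in each replicate. Distance to a reproducible peak was mostly large: 201 weak coding-exon entries had a summit less than 1000 bp from a reproducible summit, and 1887 lay more than 10 kb from all of them.

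Most of the motifs given here occurred in the same windows about as often as in coding sequence of the same GC. A match here is a run of letters on either strand, not a bound site. A run of 4 CAG units was found in 85 weak coding-exon windows (1.98%), in 0.985% of windows centred on eligible coding bases and in 1.55% of such windows at the same GC, and in none of the 3511 reproducible peaks. In the replicates the share was 1.57% ± 0.192 (SD, n = 3). The GC box GGGCGG was found in 11.8% of the weak coding-exon windows, 6.16% of eligible windows and 11.1% at the same GC.

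The core CGATA of the insulator factor BEAF-32 was in 9.54% of the weak coding-exon windows, 9.94% of eligible windows at the same GC and 18.7% of the reproducible peaks. The DRE TATCGATA, whose letters contain that core, was in 2 windows (0.0467%), against 0.0480% of eligible windows at the same GC and 2.42% of the reproducible peaks. The TATA box TATAAA was in 1.00% of the weak coding-exon windows and 1.04% of eligible windows at the same GC. The GAGA element GAGAG was in 12.6% of the weak coding-exon windows and 12.6% of eligible windows at the same GC. For these 4 motifs the shares lay within 0.5 percentage points of coding sequence of the same GC. The DRE is too rare for such a margin to show a difference, and its share in the replicates was 0.0191% ± 0.00220 (SD, n = 3).

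The tagged gene itself, CG8944 on the X, held 1 weak coding-exon entry with a pooled signal of 49.6, with 0, 1 and 1 entries in replicates 1, 2 and 3. All samples carry the fusion, so its coding sequence on the transgene and the native copy cannot be told apart in these lists.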

How the data were processed

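The 3 replicate lists and the pooled list hold peaks with background that the authors called using a control alignment, and the reproducible list was derived from them by IDR, per the deposited file listing. The sources used here name no aligner, caller, version or threshold. The deposited signal and the deposited −log10 q-value of each entry are the authors' own, and signal served to rank and describe entries within a list, not to compare its size between lists. Read depth is unknown, so no interval was made from it. The number of entries per list limits the precision.

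Coordinates are 1-based on dm6. Annotation was Ensembl BDGP6.54, release 115, without transposable elements (18164 genes on the X, chromosome 4 and the arms of chromosomes 2 and 3), and its arm lengths equal those of the RefSeq sequence used. Summits were classed as promoter (within 500 bp of a TSS), UTR, coding exon, other exon, intron or intergenic, in this order. GC was taken over 50 bp on either side. Overlaps needed 1 bp, and replicates were compared by exact two-sided sign-flip permutation tests in Python 3.11.15 with NumPy 2.4.6 and pandas 2.3.3, checked on simulated intervals. Replicates are biological per the labels, and whether they came from separate collections is not stated, so p-values refer to these samples only. With 3 replicates p is 0.25 whenever all 3 differences share a sign, whatever their size. The p-value therefore does not measure the spread between samples. The SD gives it, except for values made from pairs of replicates, which share lists.

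The entries, the 14 gene lists, the 12 motifs and the rules were chosen with earlier results of these data known. Genes named are those of the 10 strongest entries, the 10 with the most entries (ties by highest signal) and the 5 with the most per kb. Also named are the genes of the 5 entries with the best replicate ranks, those of the coding-exon peaks next to the boundary, and CG8944. From each list at most 2 genes were named, those with the most pooled entries (ties by highest signal). Pgant2, CG33978 and otp were named after their values were seen. Of the listed genes, 1 muscle gene name and 3 dynein heavy chain genes were not found on these arms, and 4 names were updated from synonyms. No paired or control analysis was made.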

Additional observations from a re-analysis of the deposited data

How the results depend on the processing

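The GC difference kept its direction under all 9 alternatives, at 11.6 to 14.5 percentage points, and 12.9 to 13.9 when each replicate was left out. The agreement difference kept its direction under 9 of 11 alternatives, and was -5.67 to -1.76 percentage points without one replicate. It reversed to 8.24 when only entries at or above the median signal were set against all other weak entries, and to 0.12 when those below it were set against entries of the same signal range (-3.63 for those above it). The log2 density ratio was 0.39 to 0.93 under 8 of 9 alternatives, 0.81 to 0.93 without one replicate, and reversed to -0.081 at matched GC in bins under 55% GC. The cause was not tested. The matched-GC, intron-only and same-signal alternatives were chosen after seeing the data. No paired analysis was possible because all samples form 1 group. The finite lists (30000 entries each for replicates 1 and 2, 27393 for replicate 3) and the unknown read depth limit how far weak entries can be followed.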

Other observations

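Of the 22 pooled coding-exon entries that overlapped a reproducible peak, 7 were weaker entries whose summit lay 200 to 210 bp from that of the reproducible peak. They were in Brd7-9, mats, CG43332, bif, CG5854, pyd and CG31371, with signals of 39.5 to 66.6, inside the range of the weak coding-exon entries. The one in pyd (signal 59.3) and the reproducible peak beside it (117.6) shared the same replicate entries, with signals of 35.9, 47.7 and 27.4 in replicates 1, 2 and 3. These genes were picked after their values were seen.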
